A study of Mus musculus with 36 samples.

Results

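The genes described here are markers and effectors of liver fibrosis: Col1a1, Col1a2, Col3a1, Acta2, Des, Tgfb1, Ctgf, Timp1 and Lox. They were taken by symbol, and all 9 were found among the 24066 symbols that the tables list on a single row. RNA was sequenced from livers of 36 male wild-type C57BL/6JRj mice aged 16 weeks, kept 5 per cage under 12 h of light and 12 h of dark. Of these, 18 mice underwent chronic intermittent hypoxia (IH) for 4 weeks, with 60 cycles per h between a nadir of 5% and a peak of 21% FiO2, given daily from Zeitgeber time (ZT) 0, lights on, to ZT8. The other 18 mice were normoxic controls that received matched air-air cycles over the same weeks. Livers of 3 mice per condition were collected at each of 6 times, ZT0, 4, 8, 12, 16 and 20, and no mouse was sampled more than once.

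Hepatic stellate cells lie between hepatocytes and the sinusoidal endothelium and store vitamin A. On injury they turn into contractile myofibroblasts that lay down fibrillar collagen, a process driven by TGF-beta and limited by the balance of matrix proteases and their inhibitors. In healthy liver, transcripts of these genes come from a small share of the cells, so whole-liver levels are low.

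Members are grouped below by role. Col1a1, Col1a2 and Col3a1 encode the chains of collagens I and III, the main fibrillar collagens of scar. Acta2 encodes alpha smooth muscle actin, the usual marker of myofibroblasts and of vascular smooth muscle, and Des encodes desmin, an intermediate filament of rodent stellate cells and of muscle. Tgfb1 encodes the cytokine TGF-beta 1, and Ctgf (now Ccn2) encodes a matricellular protein induced by TGF-beta and by mechanical signals. Timp1 encodes an inhibitor of matrix metalloproteases, and Lox encodes lysyl oxidase, which crosslinks collagen.

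In the GENCODE M21 annotation of GRCm38, the build also named mm10, Col1a1 spans chr11:94936224-94953042 and Col1a2 spans chr6:4504814-4541544, both on the plus strand. Col3a1 spans chr1:45311538-45349706 and Des spans chr1:75360329-75368579, also on the plus strand. Acta2 lies at chr19:34241090-34255590 on the minus strand. Tgfb1 is at chr7:25687002-25705077, Ctgf at chr10:24595442-24598683 and Timp1 at chrX:20870166-20874735, all on the plus strand. The deposited values are 1 level per gene, so nothing in them refers to single exons or untranslated regions.

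Promoters of 6 of the 9 members were in the RefSeq promoter table for GRCm38.p6 (Col1a2, Col3a1, Acta2, Des, Tgfb1 and Timp1). The 250 bases before the RefSeq start are printed for Col3a1 and Des, which followed a daily course under IH, and for Timp1, which did not. These windows hold no annotated exon. They lie on the plus strand at chr1:45311288-45311537, chr1:75360042-75360291 and chrX:20869916-20870165. Capitals mark matches, on either strand, to 9 searched motifs. These were the CArG box of serum response factor, the TATA motif TATAAA, the CCAAT motif, the E-box CACGTG, the hypoxia response core ACGTG, which lies within the E-box, the cAMP response core TGACG, the SMAD-binding letters CAGAC, the GC box GGGCGG and the D-box TTATGTAA.
Col3a1: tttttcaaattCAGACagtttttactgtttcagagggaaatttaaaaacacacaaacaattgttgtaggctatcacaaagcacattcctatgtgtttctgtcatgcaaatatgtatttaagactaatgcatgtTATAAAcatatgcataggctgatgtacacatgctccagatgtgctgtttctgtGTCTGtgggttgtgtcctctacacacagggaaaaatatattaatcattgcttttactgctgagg
Des: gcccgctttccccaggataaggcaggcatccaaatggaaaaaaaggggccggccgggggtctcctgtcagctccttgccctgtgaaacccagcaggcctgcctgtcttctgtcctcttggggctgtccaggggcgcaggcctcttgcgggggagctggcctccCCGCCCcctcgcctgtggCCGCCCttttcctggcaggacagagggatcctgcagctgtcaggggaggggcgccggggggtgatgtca
Timp1: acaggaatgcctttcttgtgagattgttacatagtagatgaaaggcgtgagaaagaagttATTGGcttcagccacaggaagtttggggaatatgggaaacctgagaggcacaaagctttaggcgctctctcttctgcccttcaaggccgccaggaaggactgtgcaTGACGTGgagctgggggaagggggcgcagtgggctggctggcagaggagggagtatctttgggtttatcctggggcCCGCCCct

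The Col3a1 window held TATAAA at 1 position, starting 117 bases before the start, and CAGAC at 2 positions, 1 per strand, at 239 and 64 bases before it. Among all 32851 promoter windows of this length, 12.4% held TATAAA and 42.2% held CAGAC. The Des window held GGGCGG on the minus strand at 2 positions, 87 and 69 bases before the start, a motif found in 32.7% of windows. In Timp1, TGACG and ACGTG overlapped within the letters TGACGTG, 84 bases before the start. TGACG was in 17.8% of all windows and ACGTG in 16.6%, and Timp1 also held CCAAT (33.8% of windows) and GGGCGG. A match is only a match of letters, and the CArG box, found in 1.47% of windows, CACGTG (6.02%) and TTATGTAA (0.819%) were in none of these 3 windows.

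Levels were deposited as FPKM, fragment numbers scaled for transcript length and for library size, so that levels of different genes can be set side by side. Averaged over the 36 libraries, Col3a1 was the highest member at 3.85 FPKM, followed by Ctgf at 3.41 and Tgfb1 at 2.92. Col1a2 at 2.08, Col1a1 at 1.85, Des at 1.18 and Acta2 at 1.09 FPKM came next. Col3a1 exceeded Col1a1 and Col1a2 in 36 of 36 libraries, and Col1a2 exceeded Col1a1 in 33, whereas Ctgf and Tgfb1 overlapped, as did Des and Acta2.

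Timp1 and Lox were near the lower end of detection. Timp1 averaged 0.183 FPKM, and was listed at 0 in 2 control libraries, 1 at ZT0 and 1 at ZT16. Lox averaged 0.0425 FPKM, with a range of 0.00292 to 0.103, and fell below the mean of 0.1 FPKM required for testing. Thus 8 of the 9 members were among the 13215 genes tested.

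**Figure D1:**
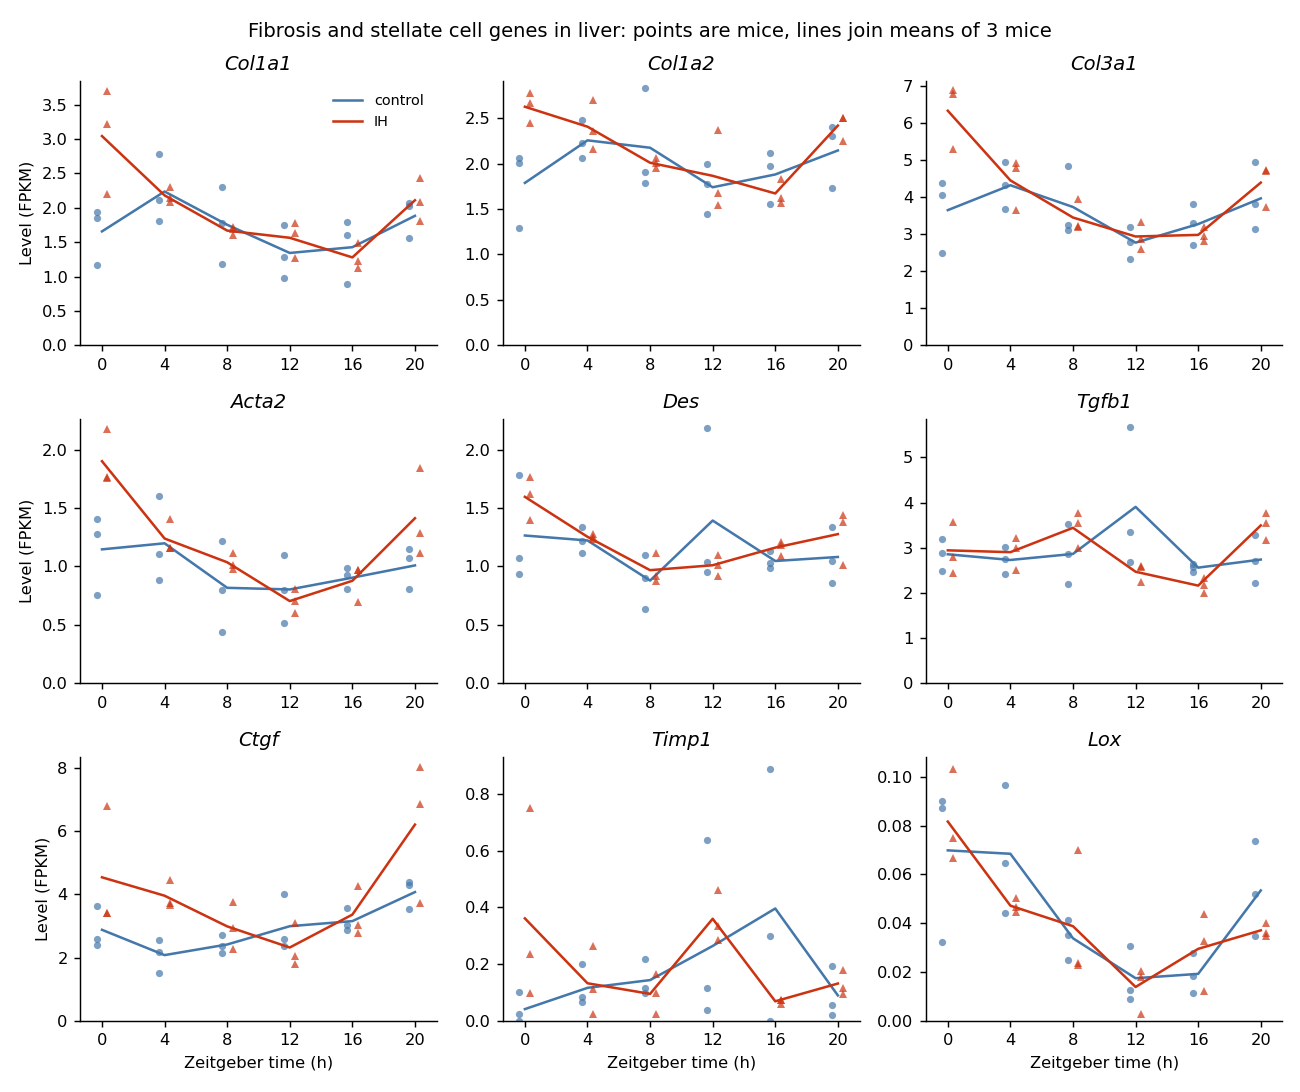
Level (FPKM, each panel with its own axis from 0) of the 9 members against Zeitgeber time (h); circles are control mice, triangles IH mice, and lines join the means of 3 mice. At ZT0 the 3 IH mice lie above the 3 control mice for Col1a1, Col1a2, Col3a1 and Acta2, and the 3 highest Timp1 points are single mice.

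FPKM values summed to between 540095 and 579428 per library over the single-row symbols, except for control ZT12 replicate 2 at 758113. Counts were not analysed here, so depth and counting intervals are not known. The value of 1 fragment, estimated from the steps between low values, differed by at most 1.69-fold between libraries. The hepatocyte markers, led by Alb, summed to 42390 to 69580 FPKM, so every library carried the labelled tissue. In 3 libraries, IH ZT0 replicate 2, control ZT12 replicate 2 and control ZT16 replicate 3, the acute-phase gene Saa1 stood between 12900 and 22900 FPKM, against 19.1 to 2470 in the other 33. Results that rest on these libraries are given with and without them.

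The first question was whether 4 weeks of IH changed the overall level of these genes. None of the 8 members differed between conditions over all time points (limma, Benjamini-Hochberg adjusted p below 0.05), where 47 of 13215 genes, 0.356%, did. At an unadjusted P below 0.05, 2 of 8 differed, Ctgf and Acta2, against 10.8% of all genes. Without the 3 libraries with high Saa1 the count was 3 of 8, against 14.6% of genes, with Des added at a log2 difference of 0.09 (adjusted p = 0.325) in place of 0.05. Leaving out control ZT12 replicate 2 alone gave the same difference for Des (adjusted p = 0.339). Over all 36 libraries the members' median difference was 0.10 on the log2(FPKM + 1) scale, against 0.03 for all genes tested.

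Ctgf showed the largest difference among members. Control livers averaged 2.93 ± 0.805 FPKM and IH livers 3.89 ± 1.71 FPKM (SD, n = 18 each), a log2 difference of 0.27 (SE 0.10, adjusted p = 0.301), and its mean was higher in IH at 5 of 6 times. Acta2 averaged 0.980 ± 0.297 FPKM in control and 1.20 ± 0.440 FPKM in IH, a log2 difference of 0.14 (SE 0.06, adjusted p = 0.405). These ranges overlapped widely, and neither gene passed the test.

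The collagens differed little on average. Col1a1 averaged 1.72 FPKM in control and 1.97 in IH, Col3a1 3.62 and 4.09, and Col1a2 2.00 and 2.17. The 95% interval of the fold on the FPKM + 1 scale ran from 0.982 to 1.21 for Col1a1, from 0.977 to 1.21 for Col3a1 and from 0.978 to 1.14 for Col1a2. On the same scale it ran from 0.956 to 1.12 for Des and from 0.898 to 1.10 for Tgfb1. A fold of FPKM + 1 understates that of FPKM, the more so the lower the gene. For Timp1, far below 1 FPKM, it gives no useful bound, and its log2 difference was 0.03 with 1 added (adjusted p = 0.897) and 0.20 with 0.1 added (adjusted p = 0.787).

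ZT4 and ZT8, which fall inside and at the end of the daily hypoxic window, were then compared over 12 mice. Ctgf was the only member to pass, 1 of 8 against 6.05% of genes higher in IH by the same rule. At ZT4 the control mice had 1.5, 2.17 and 2.56 FPKM and the IH mice 3.74, 3.67 and 4.47 FPKM. At ZT8 the control mice had 2.16, 2.73 and 2.36 FPKM and the IH mice 2.26, 2.94 and 3.77 FPKM. The groups were apart at ZT4, as were 26.7% of genes with IH above control, and overlapped at ZT8. The ZT4 means of 2.08 and 3.96 FPKM differed by 0.70 on the log2 scale (SE 0.22, adjusted p = 0.105).

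Over both times Ctgf averaged 2.25 FPKM in control and 3.47 FPKM in IH, a ratio of 1.55 (log2 difference 0.45, SE 0.13, adjusted p = 0.047). The call was close to the threshold. It was lost without a filter on low values (adjusted p = 0.088), under each of 3 rescalings (adjusted p = 0.0625 to 0.0677), and on leaving out any 1 library other than IH ZT8 replicate 1 or control ZT8 replicate 2. Over the 12 libraries left out in turn, the adjusted p ran from 0.0325 to 0.105 and the log2 difference from 0.36 to 0.54. Of the other members, none passed, and the collagens differed by between -0.02 and 0.00 on the log2 scale.

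**Figure D2:**
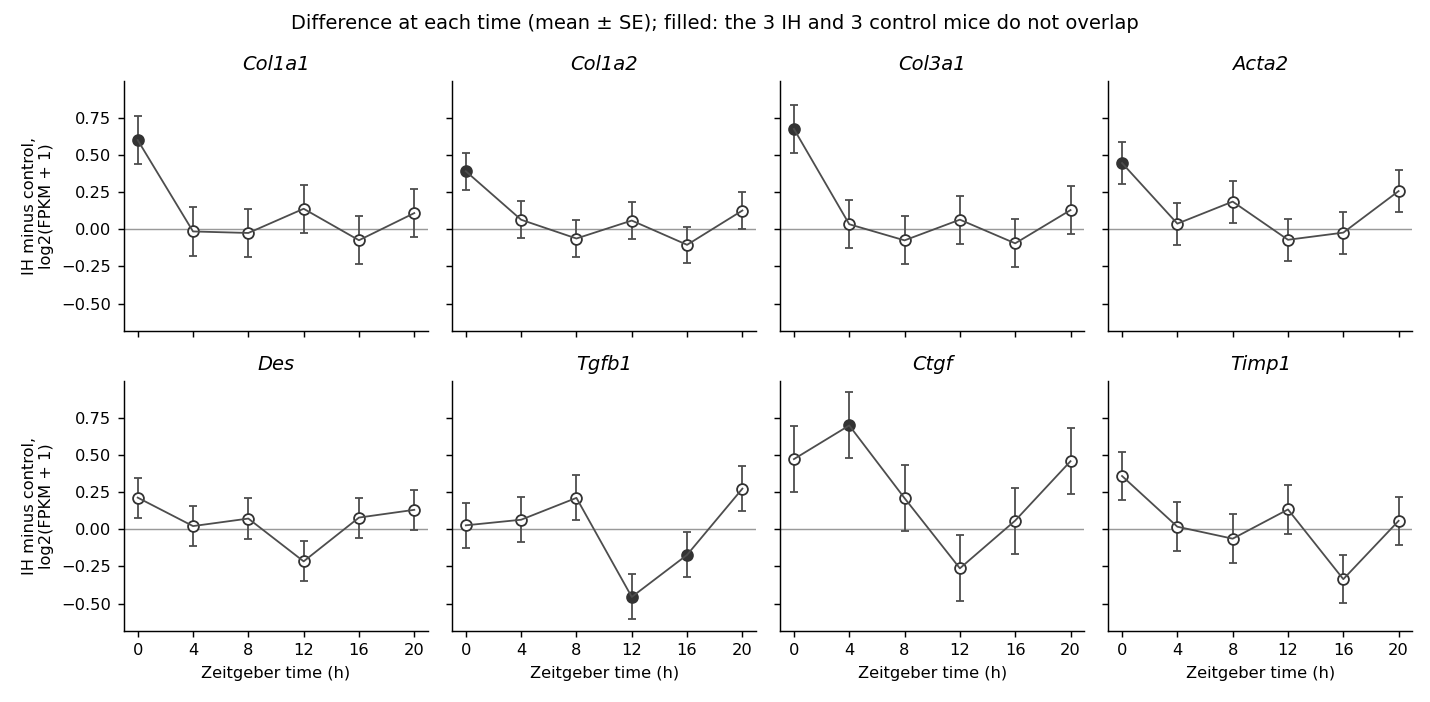
IH minus control in log2(FPKM + 1) at each Zeitgeber time (h) for the 8 members tested; points are differences of group means (n = 3 per group), bars are SE, and filled points mark times at which the 3 IH and 3 control mice do not overlap. The filled points are at ZT0 for the collagens and Acta2, at ZT4 for Ctgf, and at ZT12 and ZT16 for Tgfb1.

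At single time points, no member passed the adjusted threshold. The share of all genes that passed was 0% at ZT0 and ZT20, 1.16% at ZT4, 0.00757% at ZT8 and at ZT16, and 0.772% at ZT12. Besides Ctgf at ZT4, the differences furthest from 0 were mostly at ZT0, lights on, when the next hypoxic period begins. At this time 6 of 8 members, all but Des and Tgfb1, had an unadjusted P below 0.05, against 7.57% of genes. At each of the other 5 times 0 or 1 of 8 members did. The shares of all genes there were 16.4% at ZT4, 4.74% at ZT8, 24.6% at ZT12, 3.3% at ZT16 and 4.74% at ZT20. All 8 differences at ZT0 were positive, with a median of 0.42 on the log2 scale against -0.02 for all genes. IH ZT0 replicate 2 is the 1 library at ZT0 among the 3 with high Saa1. Without these 3 the count was again 6 of 8, against 8.2% of genes, but with Des in place of Timp1. The members' median difference at ZT0 was then 0.38. The difference of Timp1 went from 0.36 to 0.16, and that of Des from 0.21 to 0.27. ZT0 was singled out after the values were seen.

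Col3a1 at ZT0 was 4.07, 4.39 and 2.49 FPKM in the control mice and 5.3, 6.91 and 6.79 FPKM in the IH mice. Every IH mouse thus exceeded every control mouse, with means of 3.65 and 6.33 FPKM. The ratio was 1.74, and the log2 difference 0.68 (SE 0.16, adjusted p = 0.192).

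Col1a1 at ZT0 was 1.95, 1.85 and 1.18 FPKM in control and 2.2, 3.7 and 3.22 FPKM in IH. The groups were again apart, by a ratio of means of 1.84 (log2 difference 0.60, SE 0.16, adjusted p = 0.29). Col1a2, the partner chain of Col1a1, was 2.07, 2.01 and 1.29 FPKM in control and 2.44, 2.66 and 2.77 FPKM in IH, a smaller ratio of 1.47 (log2 difference 0.39, SE 0.12, adjusted p = 0.393). Summed over the 3 collagens, control mice had 7.09 ± 1.86 FPKM and IH mice 12.0 ± 1.80 FPKM (SD, n = 3 each). At ZT4 the same sums were 8.82 ± 1.34 and 9.04 ± 0.987 FPKM, and at ZT8 7.66 ± 2.05 and 7.13 ± 0.374 FPKM. The conditions were thus close at both times. At ZT20 the sums were 8.00 ± 1.44 FPKM in control and 8.92 ± 0.827 in IH. The control mean at ZT0 was therefore lower than at ZT20 and ZT4. The sums in the 3 control mice at ZT0 were 8.08, 8.25 and 4.95 FPKM, so replicate 3, the lowest, weighed on this mean.

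Acta2 at ZT0 was 1.41, 0.752 and 1.28 FPKM in control and 1.77, 2.18 and 1.76 FPKM in IH. The IH mice lay above all controls, with a ratio of 1.66 (log2 difference 0.45, SE 0.14, adjusted p = 0.395). Des, the other cytoskeletal member, overlapped, with 1.79, 0.932 and 1.07 FPKM in control and 1.77, 1.4 and 1.62 FPKM in IH. IH above control without overlap, as for 4 of the 8 members, was found for 4.59% of all genes at ZT0.

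Single mice weighed on these sizes but not on their sign. IH ZT0 replicate 2, with high Saa1, held the highest Col1a1, Col3a1 and Acta2 values of the group. Without it the log2 differences were 0.48 for Col1a1, 0.38 for Col1a2, 0.62 for Col3a1 and 0.38 for Acta2. Control ZT0 replicate 3 held the lowest collagens, and without it the difference of Col1a2 was 0.25. In whole liver, more stellate cells or myofibroblasts and more RNA per cell cannot be told apart.

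Tgfb1 lay lower in IH at ZT12, without passing the test. At ZT12 the control mice had 3.35, 5.67 and 2.69 FPKM and the IH mice 2.57, 2.59 and 2.24 FPKM. IH lay below control without overlap, a pattern of 6.74% of genes at ZT12, with a log2 difference of -0.46 (SE 0.15, adjusted p = 0.0882). Control ZT12 replicate 2 carried much of this size: without it the difference was -0.21 (adjusted p = 0.496), although the remaining groups still did not overlap.

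That library also had the highest summed level of Kupffer cell and macrophage markers, 289 FPKM against 28.9 to 94.9 in the 33 libraries with lower Saa1, and of neutrophil markers, 212 FPKM against 0.338 to 6.13. Its Des value of 2.19 FPKM was the highest of all 36 as well. The part of these cells in the Tgfb1 value was not tested. At ZT16 Tgfb1 was again lower in IH without overlap, as were 3.84% of genes, with 2.57, 2.46 and 2.65 FPKM in control and 2.32, 2.17 and 1.99 FPKM in IH, a small difference of -0.17 (SE 0.15).

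The highest Timp1 values came from single livers. Its 3 highest values, 0.887 in control ZT16 replicate 3, 0.749 in IH ZT0 replicate 2 and 0.638 FPKM in control ZT12 replicate 2, came from the 3 libraries with Saa1 above 10000 FPKM. The other 33 libraries ranged from 0 to 0.461 FPKM with a median of 0.0992. Timp1 and Saa1 correlated across libraries by a Pearson r of 0.593 and a Spearman rho of 0.304 over all 36, and by an r of 0.0548 and a rho of 0.0969 without the 3, so the relation rested on these livers. The same libraries moved its group means. In IH at ZT0 the mean was 0.361 FPKM with replicate 2 and 0.167 without it, and in control at ZT16 it was 0.396 with replicate 3 and 0.150 without it. In control at ZT12 it was 0.264 with replicate 2 and 0.0768 without it. The IH mice at ZT12 had 0.461, 0.333 and 0.285 FPKM of Timp1, with Saa1 at 106, 2470 and 73.4 FPKM. Values below the 3 highest were thus not confined to single livers.

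**Figure D3:**
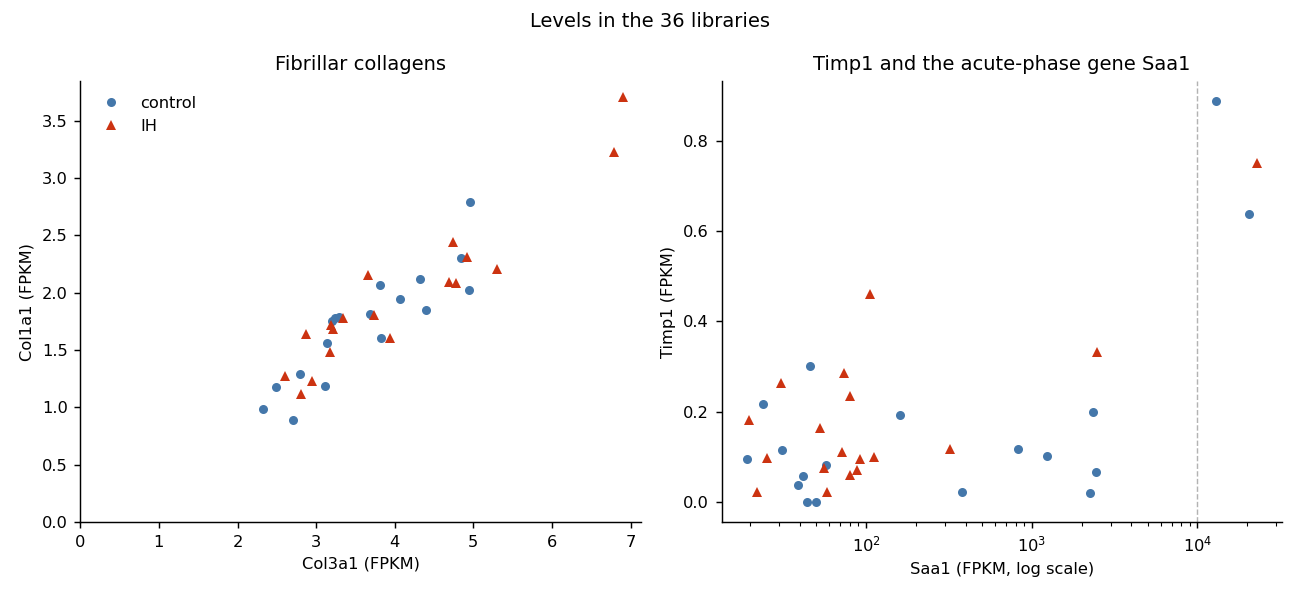
Levels in the 36 libraries: left, Col1a1 against Col3a1 (FPKM); right, Timp1 (FPKM) against Saa1 (FPKM, log scale), with a dashed line at 10000 FPKM. Circles are control and triangles IH; the 2 collagens lie along a line in both conditions, and the 3 highest Timp1 values are the 3 points right of the dashed line.

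The second question was whether these genes followed a 24-hour course, tested in each condition as a cosine (limma F test, nominal P of 0.01 or less). In IH, 6 of 8 members were rhythmic, against 39.9% of all genes, and these 6 were also called without IH ZT0 replicate 2, the library with high Saa1. In control, 1 of 8 was, against 20%, and Ctgf alone was rhythmic in both, as were 15.5% of genes. The 6 members rhythmic in IH had fitted maxima between 22.4 h and 0.88 h, around lights on. All 6 lay within 2 h of ZT0, as did 19.7% of all genes rhythmic in IH, a window chosen after the times were seen. Amplitude is the distance from the fitted mean to the fitted maximum. Its median over the 8 members was 0.27 log2 units in IH and 0.15 in control, against 0.12 in each condition for all genes tested.

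Col3a1 had the strongest fit in IH (P = 1.76e-06, n = 18), with a maximum at 0.45 h and an amplitude of 0.42 log2 units (SE 0.05). Its group means under IH ran from 6.33 FPKM at ZT0 to 2.94 at ZT12, a ratio of 2.16, and at ZT12 the mice had 2.61, 2.87 and 3.34 FPKM. In control the means ran only from 4.32 FPKM at ZT4 to 2.77 at ZT12 (P = 0.111, n = 18, amplitude 0.17, SE 0.08). Col1a1 followed closely, with a maximum at 0.88 h and an amplitude of 0.34 in IH (P = 5.76e-05, n = 18) and an amplitude of 0.18 in control (P = 0.104). Col1a2 also peaked at 0.88 h in IH, with a lower amplitude of 0.21 (P = 0.000177, n = 18), and in control its amplitude was 0.06 (P = 0.598).

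Acta2 in IH had its highest level at the same time as the collagens, with a maximum at 0.07 h and an amplitude of 0.34 (SE 0.04, P = 2.61e-06, n = 18). Its mean went from 1.90 FPKM at ZT0 to 0.703 FPKM at ZT12, where the mice had 0.601, 0.705 and 0.804 FPKM, all below the ZT0 mice. The fitted maximum in control was at 0.25 h, with an amplitude of 0.14 (SE 0.06, P = 0.11, n = 18). Des peaked at 23.1 h in IH with an amplitude of 0.17 (P = 0.00025, n = 18). Its control amplitude was 0.03 (P = 0.94, n = 18), but without the 2 control libraries with high Saa1, 1 of which held its highest value, it was 0.11 with a maximum at 23.8 h (P = 0.19, n = 16). Its call in IH was lost when the spread was shared between conditions (P = 0.0185, n = 36).

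Ctgf was rhythmic in both conditions but with different fitted times, 18.1 h in control (P = 0.00233, n = 18, amplitude 0.29) and 22.4 h in IH (P = 0.00253, amplitude 0.44). At ZT20, where both means were highest, control mice had 4.38, 3.53 and 4.31 FPKM and IH mice 3.72, 6.87 and 8.03 FPKM. The IH mice were thus far more spread than the controls. Tgfb1 and Timp1 were rhythmic in neither condition (P = 0.128 and 0.973 in IH, 0.438 and 0.127 in control, n = 18 each). Under an F test over the 6 time points, which assumes no shape, Tgfb1 passed in IH (P = 0.00127, n = 18), with its highest means at ZT8 and ZT20, 3.44 and 3.49 FPKM, and its lowest at ZT16, 2.16 FPKM, while Ctgf passed in neither condition (P = 0.0122 in IH, 0.0106 in control).

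Lox, too low for the main test, was near its maximum at the same time of day in both conditions. At ZT0 it was 0.0901, 0.0324 and 0.0871 FPKM in control and 0.0750, 0.103 and 0.0668 FPKM in IH. At ZT12 it was 0.0306, 0.00903 and 0.0127 FPKM in control and 0.0206, 0.0181 and 0.00292 FPKM in IH. With no filter on low values, its cosine fit gave P = 0.00035 with a maximum at 1.10 h in control and P = 0.00111 with a maximum at 0.83 h in IH (n = 18 each, 18677 genes). At such levels a library may hold few fragments of Lox, and their number is not known.

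The difference between the rhythms was then tested itself, by letting the cosine terms depend on condition over 36 libraries. No member passed (adjusted p = 0.92 for each), nor did any gene, 0% of 13215. At an unadjusted P below 0.05, 2 of 8 members had a difference, Ctgf (P = 0.0138, n = 36) and Col3a1 (P = 0.0375), against 4.91% of genes. A rhythm called in IH and not in control is therefore not shown to differ for these genes. The spread between mice of the same group was larger in control than in IH for 7 of the 8, with Ctgf the exception (0.21 against 0.34 log2 units). It was 0.25 against 0.15 for Col1a1 and 0.22 against 0.09 for Des. The share of all genes with a larger spread in control was not computed, so this is not shown to be particular to the members. For Des, control ZT12 replicate 2, with high Saa1, had 2.19 FPKM, against 1.04 and 0.951 in the other mice of its group.

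**Figure D4:**
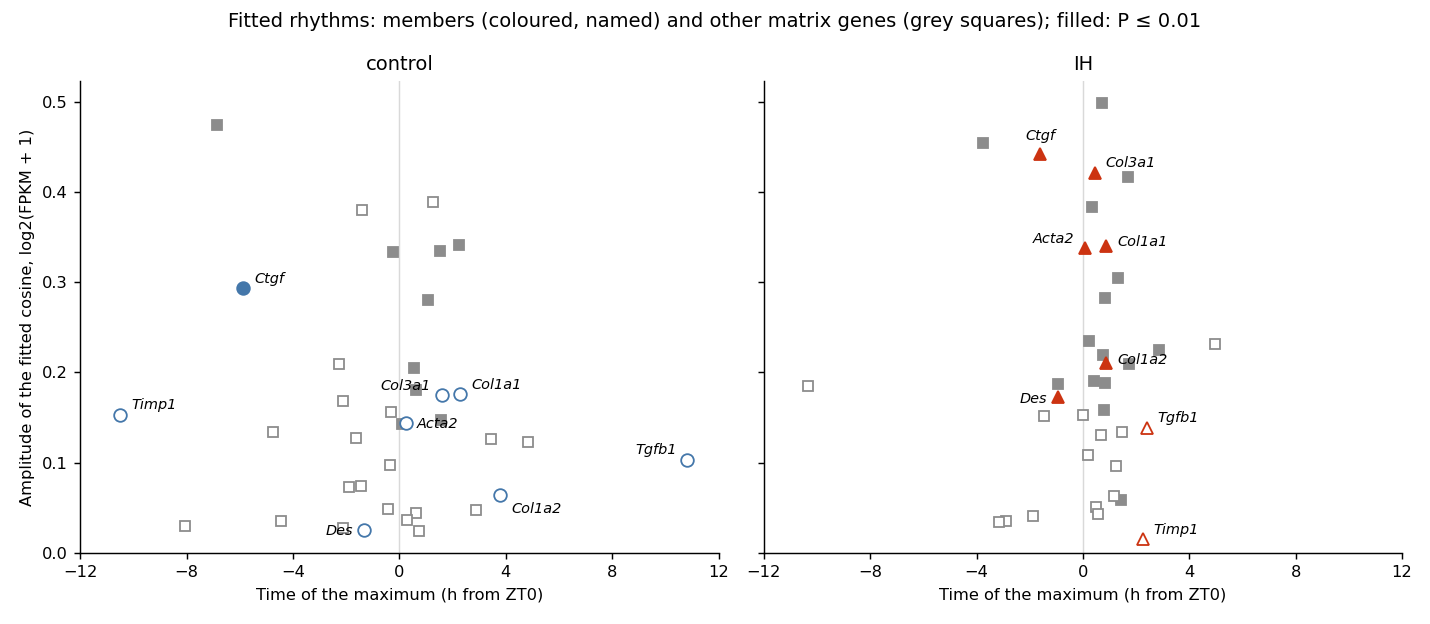
Amplitude of the fitted 24-h cosine, in log2(FPKM + 1), against the time of its maximum, in hours from ZT0, for control (left) and IH (right); named symbols are the 8 members tested, grey squares the 29 tested genes of the matrix list, and filled symbols have P of 0.01 or less. In IH the filled members and most filled squares stand close to ZT0, and in control the members other than Ctgf are open.

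The members that varied together across livers were compared by Pearson r of log2 values over the 36 libraries, which share conditions and times, as a description. Col1a1 was most like Col3a1 (r = 0.914), Col1a2 (0.88) and Col6a2 (0.842), a chain of the microfibrillar collagen VI. The 3 fibrillar collagens still correlated by 0.80 to 0.82 after the mean of each group was removed, so they also moved together from mouse to mouse. Acta2 was most like Tagln (r = 0.859) and Myl9 (0.77), which encode the smooth muscle proteins transgelin and a myosin light chain. After removal of the group means, however, Acta2 and the collagens correlated only between -0.24 and -0.08.

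Des was most like C1qtnf5 (r = 0.812) and Vim (0.799), vimentin, another intermediate filament of mesenchymal cells. Tgfb1 was most like Arhgdib (0.786) and Gpihbp1 (0.76), the latter an endothelial anchor of lipoprotein lipase. Timp1 was most like the acute-phase gene Saa3 (0.752), and Ctgf had the lowest r with its closest gene among the 9 members, 0.703 with Arl4d. Between Des and Tgfb1, r within groups was 0.701, and both were highest in control ZT12 replicate 2.

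Other genes of the same pathways were counted in the same way, against the 39.9% of all genes rhythmic in IH and the 20% rhythmic in control. Among 29 tested collagens and matrix proteins outside the members, none changed in level over all times, and 15 (51.7%) were rhythmic in IH and 9 (31.0%) in control, 8 of them in both. Of the 15, 13 had a maximum within 2 h of ZT0, against 19.7% of all genes rhythmic in IH, and of the 9, 7 did, against 39.5% in control. This window was chosen after the times were seen. Col4a1, a basement membrane collagen, peaked at 0.73 h in IH (P = 5.02e-09, n = 18) and at 1.54 h in control (P = 4.99e-05). Sparc, a collagen-binding matricellular protein, peaked at 0.33 h in IH (P = 4.62e-09, n = 18), and Eln, elastin, at 0.83 h in IH and at 23.8 h in control (P = 3.02e-07). The list genes with the smallest P for level, Col6a1 (1.91 FPKM in control, 2.28 in IH) and Col6a2 (1.19 and 1.39), had adjusted p = 0.198 and 0.199. At ZT4 and ZT8 only Col18a1, the source of endostatin, was higher in IH among the 29 (175 and 202 FPKM, adjusted p = 0.0144), and this call held with each of the 12 libraries left out.

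Among 14 tested genes of collagen processing and crosslinking, 11 (78.6%) were rhythmic in IH and 8 (57.1%) in control, all 8 also in IH. A maximum within 2 h of ZT0 was fitted in IH for 5 of the 11, against 19.7% of all genes rhythmic in IH. Loxl4, a lysyl oxidase relative, had the largest amplitude of those named, 0.91 log2 units in control and 0.82 in IH, with maxima at 23.7 h and 23.0 h. Plod1, a lysyl hydroxylase, peaked at 18.6 h and 18.2 h. At ZT4 and ZT8, Tgm2, a transglutaminase, was lower in IH (34.3 FPKM in control, 20.9 in IH, adjusted p = 0.0176), as were 1.93% of all genes, and Bmp1, a procollagen protease, was higher (24.1 in control, 29.2 FPKM in IH, adjusted p = 0.031). The Tgm2 call held with any library left out, and that of Bmp1 was lost in 7 of 12 cases (adjusted p up to 0.0716).

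Of 22 tested TGF-beta pathway genes, none changed over all times, and 12 (54.5%) were rhythmic in IH and 2 (9.09%) in control. A maximum within 2 h of ZT0 was fitted in IH for 4 of the 12, against 19.7% of all genes rhythmic in IH. The receptor gene Tgfbr1 peaked at 8.88 h in IH (P = 8.38e-07, n = 18), and the SMAD corepressor gene Skil at 19.3 h in IH (P = 2.1e-06) and 19.5 h in control (P = 5.91e-06). At ZT4 and ZT8, Tgfbr3 was higher in IH, with 1.20 FPKM in control and 1.59 in IH (adjusted p = 0.0284), as was Furin, which encodes a protease that activates pro-TGF-beta (adjusted p = 0.0218). On leaving out 1 library at a time, the call of Tgfbr3 was lost in 7 of 12 cases and that of Furin in 3, with adjusted p up to 0.0709 and 0.0585. Tgfb1 itself differed by 0.14 log2 units there (adjusted p = 0.33).

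Matrix turnover held the only pathway gene that was called over all times. Reck, which encodes a membrane-anchored inhibitor of metalloproteases, was higher in IH (0.823 and 1.35 FPKM, log2 difference 0.36, SE 0.07, adjusted p = 0.0143), as were 0.303% of genes, and remained so with each of the 36 libraries left out. Of the 9 tested, 6 (66.7%) were rhythmic in IH and 1 (11.1%) in control, led by Mmp2, gelatinase A, with a maximum at 1.86 h in IH (P = 9.41e-06, n = 18). A maximum within 2 h of ZT0 was fitted in IH for 2 of the 6, against 19.7% of all genes rhythmic in IH. At ZT4 and ZT8, Reck, Timp2 and Timp3, 3 inhibitor genes, were higher in IH (adjusted p = 0.0275 to 0.0484). Mmp19, 1 protease gene, was lower, and its adjusted p lay in the same range. Over all genes, 799 (6.05%) were higher and 255 (1.93%) lower by the same rule, so higher calls also outnumbered lower ones there. None of these 4 calls at ZT4 and ZT8 was firm, since those of Timp2 and Timp3 were lost with 10 of the 12 libraries and those of Reck and Mmp19 with 7 (adjusted p up to 0.107). Timp1, the member of this family, differed by -0.02 there.

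In the contractile and myofibroblast list, 6 of 12 tested genes (50.0%) were rhythmic in IH and 1 (8.33%) in control. The 6 in IH all peaked within 2 h of ZT0, against 19.7% of all genes rhythmic in IH. Cald1, caldesmon, was the 1 called in control (P = 1.19e-05, n = 18), and Tagln peaked at 0.75 h in IH (P = 2.27e-06). None changed over all times, and Mylk, a myosin kinase, was higher at ZT4 and ZT8 (6.94 and 8.93 FPKM, adjusted p = 0.0211), a call lost with 3 of the 12 libraries. Of 8 tested CCN family genes and YAP targets, 3 (37.5%) were rhythmic in IH, 2 of them with a maximum within 2 h of ZT0, and 2 (25.0%) in control. None of the 8 differed in level over all times or at ZT4 and ZT8. Wisp1, another CCN gene, peaked at 1.02 h in IH and 0.98 h in control, at levels of 0.186 and 0.202 FPKM. Cyr61, of the same family, differed by 0.20 log2 units over all times (adjusted p = 0.566).

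Cell type markers were set against the same shares of all genes, 39.9% in IH and 20% in control. Of 20 tested stellate cell markers, 4 (20.0%) were rhythmic in IH and 3 (15.0%) in control, none changed over all times, and their ZT0 median difference was 0.05 log2 units. Lrat, which makes retinyl esters in these cells, was at 0.684 to 2.88 FPKM, Pdgfrb at 0.782 to 2.02, and Gfap, below the filter, at 0.0160 to 0.159. Pdgfrb peaked at 1.03 h in IH (P = 5.33e-06, n = 18) and 2.14 h in control (P = 0.00175), near the collagens. Of the 4 markers rhythmic in IH, 3 had a maximum within 2 h of ZT0, against 19.7% of all genes rhythmic in IH. The markers Lrat, Reln, Hand2 and Colec11 were rhythmic in neither condition (P = 0.29 to 0.647 in IH and 0.0141 to 0.59 in control, n = 18 each). At ZT4 and ZT8, Hand2 and Tcf21, transcription factors of stellate cells, were higher in IH and Steap4, a metalloreductase gene, was lower (64.0 FPKM in control, 18.1 in IH, adjusted p = 0.0339), though these 3 calls were each lost with 6 to 8 of the 12 libraries. Steap4 was at 128 and 138 FPKM in control ZT4 replicates 1 and 3, where Saa1 stood at 2360 and 2430 FPKM, and at 22.1 to 37.8 FPKM in the other 4 control mice, where Saa1 was 19.1 to 828. The 6 IH mice had 16.4 to 19.4 FPKM of Steap4, below each control, and 21.9 to 72.1 FPKM of Saa1. The part of the acute-phase response in this difference was not tested. The summed stellate markers lay between 180.9 and 337.9 FPKM in the controls and between 218.2 and 461.4 FPKM under IH. Most of this sum came from Cxcl12, Ecm1 and Steap4, so it says little about the other markers. These 3 averaged 106, 54.1 and 52.7 FPKM in control, against 14.6 for Colec11, the next highest, and 1.47 for Lrat. The highest sum came from IH ZT0 replicate 2, where Steap4 alone reached 292.8 FPKM.

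Portal fibroblast and mesothelial markers summed to 3.29 to 6.97 FPKM in control and 4.42 to 7.88 in IH, with none of 8 changed over all times and 1 of 8 rhythmic in each condition. Cholangiocyte markers (6 tested) gave 3 rhythmic genes in IH and 2 in control, hepatocyte markers (8) 2 and 1, endothelial markers (9) 2 and 0, lymphocyte markers (4) 2 and 0, and Kupffer cell (8) and neutrophil (3) markers none. Lyve1, a marker of sinusoidal endothelium, was higher in IH over all times (1.54 FPKM in control, 2.14 in IH, adjusted p = 0.0181), also with each of the 36 libraries left out, and no other marker passed. At ZT4 and ZT8, Apoa1, a hepatocyte apolipoprotein gene, was the only marker outside the stellate list to pass (9100 FPKM in control, 11600 in IH, adjusted p = 0.0122). The part of cell composition in the members' levels was not tested.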

How the data were processed

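Liver RNA-seq of 36 mice was analysed. The authors aligned reads to mm10 with TopHat2 2.1.1 and deposited FPKM values per mouse from Cufflinks 2.2.1 (versions from the submitters' processing notes). The gene annotation is not given in the sources used here. The 2 deposited tables share column names, so condition was taken from the table names and from means plotted in the study. Symbols on more than 1 row (280) were left out. In R 4.3.3 with limma 3.58.1, log2(FPKM + 1) of 13215 genes averaging 0.1 FPKM or more was fitted across all genes with an intensity trend. Level was tested with time point as a factor (Benjamini-Hochberg adjusted p of 0.05), and rhythm as a 24-h cosine within each condition (nominal P of 0.01), since BIO_CYCLE, the test of the study, was not used here. Scripts were tested on simulated data. Members and gene lists were chosen with earlier results of these data known. Named genes are the members and, from each list, the 2 with the smallest P for level and for rhythm in each condition. The 3 genes most like each member, among genes averaging 1 FPKM or more, were also taken. Other list genes are named after their values were seen. They passed a test, mark stellate cells (Lrat, Reln, Colec11, Gfap) or lead a marker sum (Cxcl12, Ecm1). Saa1 is named because 3 libraries stand apart in it. Alternatives covered scaling, filter, pseudocount, weights, replicate block and leaving out libraries.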

Additional observations from a re-analysis of the deposited data

How the results depend on the processing

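No member was called for level over all time points or for a difference in rhythm under any alternative or with any 1 library left out. The Ctgf call at ZT4 and ZT8 (1 member) became 0 with no filter on low values, a common sum, median-of-ratios scaling or quantile normalization, and the count ranged from 0 to 1 over the 12 libraries left out. At single time points the count of 0 became 1 with sample weights (Ctgf at ZT4, adjusted p = 0.00319), 1 without the libraries with Saa1 above 10000 FPKM (Ctgf at ZT4, adjusted p = 0.0399) and 6 at a nominal P of 0.01, and ranged from 0 to 1 over the libraries left out (Tgfb1 at ZT12, without control ZT12 replicate 1 or 3). The 1 rhythmic member in control became 0 with an F test over the 6 time points or with a shared spread, and ranged from 1 to 2 over the libraries left out (Col3a1 was added without control ZT0 replicate 3). In IH the count stayed at 6 with any library left out and was 5 or 6 otherwise. The difference of Tgfb1 over all time points changed sign to 0.0066 with a common sum, 0.0477 with sample weights and 0.0652 without the libraries with high Saa1, and ranged from -0.0339 to 0.0406 over the libraries left out. That of Timp1 ranged from -0.0105 to 0.0739, with the sign changed without IH ZT0 replicate 2.

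Same-numbered mice shared no strong deviation: over 18 pairs the deviations correlated by 0.0539 on average (-0.179 to 0.294), and only 6 exceeded 0.1. This cannot show whether such mice shared a cage, day or batch. With the replicate number as a block, 0 members were called over all times, 1 at ZT4 and ZT8 (Ctgf, adjusted p = 0.0346), 0 at single times, 1 rhythmic in control, 6 in IH and 0 for the difference. Over all genes, the 47 level calls became 27 with a common sum, 314 with sample weights, 183 without the libraries with high Saa1, 442 at a nominal P of 0.01 and 0 with no time factor, and the 1054 at ZT4 and ZT8 became 614 with no filter and 1636 at a nominal P. At single times the alternatives gave between 53 and 3555 genes, rhythms in control went from 2648 to 4170 genes with sample weights, and 18 genes differed in rhythm with time as a factor. Depth is unknown, which limits Timp1 and Lox most. The causes of these changes were not tested.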
